A study of Mus musculus with 41 samples.

Results

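The 4 inhibitors of differentiation Id1, Id2, Id3 and Id4 and 6 genes of bone morphogenetic protein (BMP) signaling, namely the ligands Bmp2, Bmp4 and Bmp7, the receptor Bmpr1b and the inhibitory Smads Smad6 and Smad7, were examined in mammary tumors of mice on low or high fat diets. The 10 genes were taken by exact name from the 30175 gene names of the array, each at its probe of highest mean signal, and 20913 genes passed a filter on low signal, among them all 10. The set was chosen by pathway and selected on results of these arrays, in particular a low measured log2 ratio of Id4 in spindle cell tumors. The comparison of the 2 histologies is therefore a description of these genes and not a test.

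Id proteins are helix-loop-helix proteins without a DNA-binding region. They pair with E proteins and keep these from activating transcription, and they are known for holding cells in an undifferentiated, dividing state. BMP ligands bind receptor pairs at the cell surface, the receptors phosphorylate Smad proteins, and these enter the nucleus and switch on targets that include the Id genes as well as Smad6 and Smad7, which act back on the receptors as inhibitors. In the mammary gland the pathway takes part in duct and bud formation, and Id4 is known from basal epithelial cells and from basal-like breast tumors.

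All tumors arose from Trp53-null mammary duct fragments of BALB/c donors that had been transplanted into cleared fat pads of juvenile wild-type BALB/c females, so that in every group the grafted epithelium lacked Trp53 and the host tissue kept it. The regimens were a lifelong low fat diet (LFD), a lifelong diet high in animal fat (HFD), HFD in puberty with LFD in adulthood (HFD-LFD), and LFD in puberty with HFD in adulthood (LFD-HFD). Tumors with a latency under a year were early and the others late. The 29 tumors that the labels give as variable in morphology, read here as epithelial, came from LFD (8), HFD (8), HFD-LFD (7) and LFD-HFD (6) mice, and 14 were early and 15 late. The 12 spindle cell tumors numbered 3 in each regimen, 3 early and 9 late. Each array paired the RNA of 1 tumor with a reference pooled from cultured mouse cell lines, and values are log2 ratios of tumor over this reference. Whole tumors were used, so a lower level cannot be told apart from a smaller share of the cells that make the RNA. Donor tissue was shared between mice, and 3 label numbers occur on 2 tumors each, so p-values measure the spread between these tumors only.

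Between 52.4% and 94.9% of an array's tumor-channel spots were well above background. The 12 arrays of spindle cell tumors had their own scan session, scanner and software version, so these and histology cannot be told apart. The labels give Cy5 for the tumor, and the study's methods give it for the reference. Cy5 varied more between epithelial tumors (a median SD over spots of 0.646 against 0.306), and the Y-linked genes Ddx3y and Eif2s3y, absent from female tissue, gave more Cy3 than Cy5 signal on 41 arrays each. The Y-linked genes Kdm5d and Uty did so on 16 and 20 arrays, with median signals under 10 in both channels. Cy5 was therefore read as tumor, which opposes the direction in the methods and applies to every signed value here. Taken array by array, the channels of tumors 42L4B, 60L and M86R were less clear, and the HFD epithelial tumors 40R4A, 57R and 65R carry labels that differ between the scanner data and the processed matrix; the labels of the scanner data were used. Arrays M32L, M76R and M86R had compressed ratios or low tumor signal.

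The probe positions, in NCBI37/mm9, were chromosome 13, 48358668 to 48358727, for Id4, chromosome 2, 152563083 to 152563142, for Id1, chromosome 12, 25778904 to 25778963, for Id2 and chromosome 4, 135700075 to 135700249, for Id3. Those of the ligands were chromosome 2, 133388260 to 133388319, for Bmp2, chromosome 14, 47003391 to 47003450, for Bmp4 and chromosome 2, 172695203 to 172695262, for Bmp7. Bmpr1b was read at chromosome 3, 141503374 to 141503433, and Smad6 at chromosome 9, 63800980 to 63801039.

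The 250 bases before the transcription start are printed for Id4 and Id2, the Id genes whose levels were lower in spindle cell tumors, and for Id3 and Smad6, whose levels moved together among epithelial tumors. They come from RefSeq on GRCm38.p6, and starts of 6 of the 10 genes were examined, 8 starts in all. The windows of Id1, Bmp2, Bmp7 and Smad7 were not examined, so their motifs are not described. Capitals mark GGCGCC and CAGAC, short sequences known to be bound by BMP-activated Smads and by Smads in general, searched on both strands, so that GTCTG is CAGAC read from the other strand and GGCGCC is its own reverse. The windows are chr13:48260866-48261115 on the plus strand for Id4, chr12:25096093-25096342 on the minus strand for Id2, chr4:136143572-136143821 on the plus strand for Id3 and chr9:64022060-64022309 on the minus strand for Smad6.
Id4: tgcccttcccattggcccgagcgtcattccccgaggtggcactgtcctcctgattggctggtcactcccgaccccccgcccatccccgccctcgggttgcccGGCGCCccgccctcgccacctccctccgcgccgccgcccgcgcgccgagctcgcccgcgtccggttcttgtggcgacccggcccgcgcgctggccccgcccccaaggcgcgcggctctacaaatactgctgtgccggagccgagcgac
Id2: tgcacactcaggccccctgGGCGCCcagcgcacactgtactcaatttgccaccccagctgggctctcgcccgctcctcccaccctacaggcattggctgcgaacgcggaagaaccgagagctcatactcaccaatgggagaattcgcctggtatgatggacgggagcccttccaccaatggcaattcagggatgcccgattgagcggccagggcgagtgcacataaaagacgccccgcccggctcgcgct
Id3: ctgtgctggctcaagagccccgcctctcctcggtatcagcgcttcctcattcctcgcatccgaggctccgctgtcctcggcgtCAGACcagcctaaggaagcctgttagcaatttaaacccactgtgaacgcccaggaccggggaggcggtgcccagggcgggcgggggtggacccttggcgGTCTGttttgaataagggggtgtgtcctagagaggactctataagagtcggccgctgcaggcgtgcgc
Smad6: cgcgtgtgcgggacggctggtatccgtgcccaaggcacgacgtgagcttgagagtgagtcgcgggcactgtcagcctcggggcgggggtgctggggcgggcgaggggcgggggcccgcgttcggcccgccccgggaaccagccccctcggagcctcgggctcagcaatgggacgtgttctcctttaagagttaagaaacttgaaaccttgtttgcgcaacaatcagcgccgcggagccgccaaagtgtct

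The Id4 and the Id2 window held 1 GGCGCC each, the Id3 window held 2 CAGAC on opposite strands, and neither was found in the Smad6 window. Among 32851 starts, GGCGCC was found before 9.59% and CAGAC before 42.2%. The windows were rich in G and C, with 75.6% for Id4, 66.8% for Smad6 and 62.8% each for Id2 and Id3. These matches are a description of letters.

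Id4 was the most variable of the 4 Id genes. In epithelial tumors its log2 ratio had a mean of 0.70 ± 2.12 (SD, n = 29), from -3.65 over a median of 0.71 to 4.79, and the SD lay at the 99.7th percentile of all genes tested. In the 12 spindle cell tumors the mean was -1.53 ± 1.87. The 3 LFD spindle cell tumors stood at 1.81, 0.31 and -0.19, and the 3 HFD tumors at 0.59, -1.51 and -3.06. The HFD-LFD tumors stood at -1.94, -2.28 and -5.03, and the LFD-HFD tumors at -2.08, -2.23 and -2.77. All 6 tumors of the switched regimens were thus below the 3 LFD tumors, and the HFD tumors reached across both. The spindle cell range lay within or below that of the epithelial tumors, with a wide overlap. The difference of means, spindle cell minus epithelial, was -2.23 (SE 0.68). It lay mainly in the tumor channel, with a difference of -2.90 there and of -0.67 in the reference channel, and the mean tumor intensity was 9700 in epithelial and 1050 in spindle cell tumors. The Id4 probe exceeded background clearly on 40 of the 41 arrays.

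Id2, which in the mammary gland is known from differentiating luminal cells, had a mean of 0.15 ± 0.64 (n = 27) in epithelial tumors, from -1.07 over a median of 0.13 to 1.54. In spindle cell tumors it was -0.71 ± 0.99, from -2.50 over a median of -1.05 to 0.67, a difference of -0.86 (SE 0.26). The difference was -0.62 in the tumor channel and 0.25 in the reference channel. Id1 and Id3, classical targets of BMP-activated Smads, stood below the reference in most tumors. Id1 had -1.70 ± 0.97 (n = 28; -3.91 to 0.05) in epithelial and -1.68 ± 0.95 (-3.35 to -0.34) in spindle cell tumors, a difference of 0.02 (SE 0.32). Id3 was -1.29 ± 0.91 (n = 28; -3.51 to 0.72) in epithelial and -0.93 ± 0.84 (-2.22 to 0.86) in spindle cell tumors, a difference of 0.36 (SE 0.30). The difference was -0.50 in the tumor and -0.85 in the reference channel, so the sign of the Id3 ratio difference came from the reference and opposed that of the tumor channel.

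**Figure D1:**
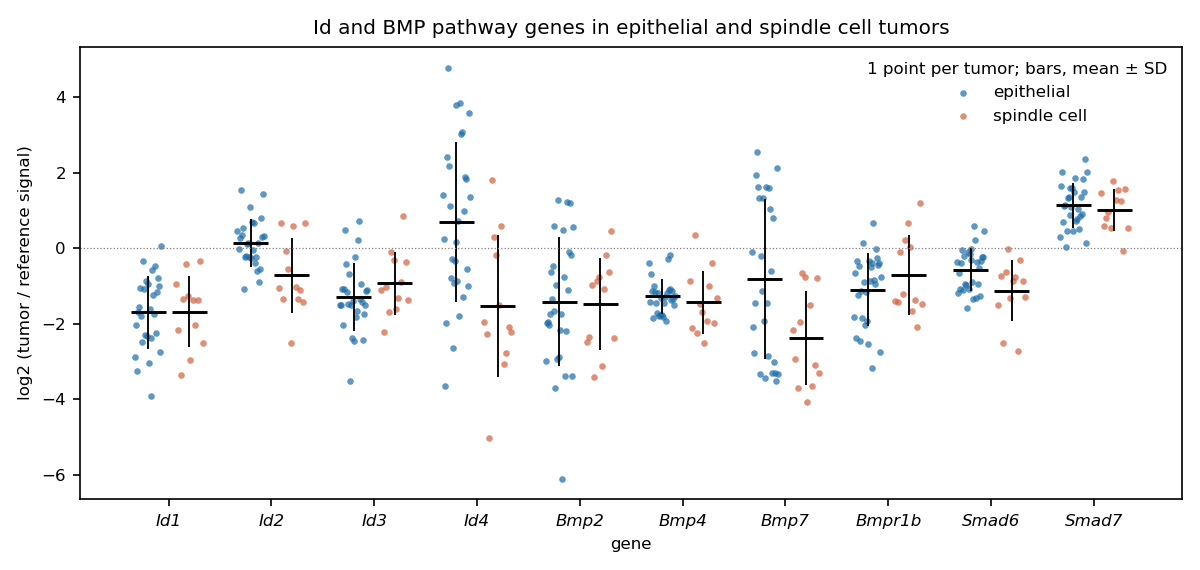
Log2 ratio of tumor over reference of the 10 genes in each epithelial (n = 29) and spindle cell (n = 12) tumor, with the mean and SD of each histology. Id4 spreads from -3.65 to 4.79 in epithelial tumors and from -5.03 to 1.81 in spindle cell tumors, while Smad7 stays between -0.07 and 2.36 throughout.

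Among the ligands, Bmp7 spread as widely as Id4. In epithelial tumors it was -0.81 ± 2.12 (n = 27), from -3.53 over a median of -1.12 to 2.54, also at the 99.7th percentile of SD. In spindle cell tumors it was -2.38 ± 1.24, from -4.08 over a median of -2.55 to -0.66, so no spindle cell tumor reached the reference. The difference was -1.57 (SE 0.64), with -1.84 in the tumor and -0.26 in the reference channel. Bmp2 was also wide in epithelial tumors, with -1.42 ± 1.72 (n = 29), from -6.10 in tumor 42L4B over a median of -1.65 to 1.28. Its mean in spindle cell tumors was -1.48 ± 1.22 (-3.41 to 0.47), a difference of -0.06 (SE 0.53). Bmp4, a ligand known from stroma, varied least of the 10 genes in epithelial tumors, with -1.27 ± 0.46 (n = 28; -1.92 to -0.19) in epithelial tumors and -1.43 ± 0.84 (-2.51 to 0.35) in spindle cell tumors, a difference of -0.16 (SE 0.20).

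Bmpr1b, a type I receptor, was dim, with a mean tumor intensity of 114 in epithelial and 116 in spindle cell tumors, and was well above background on 35 arrays. Its log2 ratio was -1.10 ± 0.96 (n = 29; -3.17 to 0.67) in epithelial and -0.72 ± 1.06 (-2.08 to 1.20) in spindle cell tumors. Its 2 probes moved together in epithelial tumors (Pearson r 0.653 over 29 tumors, as a description). The inhibitory Smads differed in level from the reference in opposite directions. Smad6, which hinders BMP receptors above all, was -0.57 ± 0.57 (n = 29; -1.58 to 0.59) in epithelial and -1.13 ± 0.81 (-2.73 to -0.02) in spindle cell tumors, a difference of -0.56 (SE 0.22). Smad7 hinders both TGF-beta and BMP receptors and was read at chromosome 18, 75555371 to 75555430. It was 1.14 ± 0.60 (n = 29, 0.04 to 2.36) in epithelial and 1.02 ± 0.55 (-0.07 to 1.78) in spindle cell tumors, a difference of -0.12 (SE 0.20). The difference was 0.44 in the tumor and 0.56 in the reference channel. The sign of the Smad7 ratio difference thus came from the reference and opposed that of the tumor channel.

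Of the 10 genes, 2 (Id2 and Id4) lay past an adjusted p of 0.05 in limma between the histologies, where 20.2% of all genes did, 7.91% higher and 12.3% lower in spindle cell tumors. Since the genes were chosen with this contrast in view, nothing is read from that count. The same holds for the alternatives. With slide as a random block Id4 no longer passed and Id2 alone did. With late tumors only, neither passed and Bmp7 alone did, with a difference of -2.26. Markers of other cell types were also compared between the histologies, to be read beside these shares of all genes. Of 8 endothelial markers 5 were called higher in spindle cell tumors and none lower, and the mean of the list was -0.88 (range -1.71 to 0.45) in epithelial and -0.21 (-1.05 to 1.09) in spindle cell tumors. Of 10 fibroblast and mesenchymal markers 6 were called higher and none lower, with list means of -1.52 (-2.49 to -0.16) and -0.62 (-2.18 to 0.51). Of 9 luminal epithelial markers 1 was called lower, with list means of 2.004 (0.09 to 4.04) and 1.12 (-1.54 to 2.88). Of 6 T cell markers 1, Cd8a, was called lower, with list means of 0.14 (-1.55 to 2.61) and -0.63 (-1.82 to 1.04). Of 6 skeletal muscle markers 1, Mb, was called lower, and no macrophage or adipocyte marker was called. A single call in lists this short is near the 12.3% of all genes called lower, so nothing is read from it. None of 8 basal and myoepithelial markers was called, with list means of -0.51 (-2.29 to 1.71) and -1.07 (-2.42 to 0.64), and all 8, Krt5, Krt14, Trp63 and Acta2 among them, were well above background on every array. The part of these cells in the differences of Id4, Bmp7 and Id2 was not tested.

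Whether diet moved these genes was asked over the 4 regimens, by HFD in puberty and by HFD in adulthood. None of the 10 passed in any of these comparisons with limma. Over the 4 regimens in epithelial tumors 0 of 10 were called, against 0.473% of all genes, and Bmp4 alone had an unadjusted p under 0.05 (limma adjusted p = 0.371). For pubertal HFD in epithelial tumors 0 of 10 and 0% of all genes were called, and Id3 alone had an unadjusted p under 0.05. For adult HFD in epithelial tumors 0 of 10 and 0% of all genes were called, with Bmp4 alone under an unadjusted 0.05. For pubertal HFD in all 41 tumors 0 of 10 were called, also by the SAM statistic, against 0.00956% of all genes. There none had an unadjusted p under 0.05. Of the 20913 genes tested, 2708 had an unadjusted p under 0.05 over the 4 regimens. In epithelial tumors 2066 did for pubertal and 838 for adult HFD, and in all tumors 1454 did for pubertal HFD.

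Id3 was the member with the clearest difference by pubertal diet among epithelial tumors. It averaged -0.90 ± 0.86 (n = 14; -2.04 to 0.72) after HFD in puberty and -1.68 ± 0.80 (n = 14; -3.51 to -0.22) without it. The ranges overlapped widely, and the difference of 0.78 (SE 0.30, 95% interval 0.16 to 1.398) did not pass adjustment (limma, adjusted p = 0.387). In spindle cell tumors the values ran the other way, with -1.37 ± 0.49 (n = 6; -2.22 to -0.90) after pubertal HFD and -0.49 ± 0.92 (n = 6; -1.70 to 0.86) without. The difference between the 2 pubertal effects was -1.66 (SE 0.54, 95% interval -2.75 to -0.56, adjusted p = 0.214). In that comparison 0 of 10 genes were called against 0.45% of all genes. Of 20911 genes tested 2561 had an unadjusted p under 0.05, and of the 10 members Id3 alone. This call turned with the processing. Under normexp background correction with loess Id3 and Smad6 passed, and without tumors 42L4B, 60L and M86R Id3 passed. Over the 14 alternatives other than leaving out single tumors in turn, the adjusted p of Id3 ranged from 0.0342 to 0.678.

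Bmp4 was lowest in LFD epithelial tumors, which stood at -1.64 ± 0.19 (n = 8; -1.83 to -1.33). The HFD tumors stood at -1.01 ± 0.60 (n = 7; -1.92 to -0.19), the HFD-LFD tumors at -1.21 ± 0.37 (n = 7; -1.86 to -0.67) and the LFD-HFD tumors at -1.17 ± 0.40 (n = 6; -1.51 to -0.39). HFD against LFD differed by 0.63 (SE 0.22, adjusted p = 0.416), and adult HFD against none by 0.35 (SE 0.17, 95% interval 0.02 to 0.69, adjusted p = 0.947), neither past adjustment. Id4 had means of -0.06 ± 1.89 (LFD), 1.31 ± 2.06 (HFD), 0.53 ± 2.85 (HFD-LFD) and 1.11 ± 1.67 (LFD-HFD), each group holding tumors both above and below the reference. With this spread the 95% interval of the Id4 difference was -1.04 to 2.05 for pubertal and -0.50 to 2.52 for adult HFD, both wide at this number of tumors.

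Between single regimens limma called no member in any of the 6 pairs, and of the 60 values 2 had an unadjusted p under 0.05, those of Bmp4 in HFD and in LFD-HFD against LFD tumors. The share of all genes called was 0% for HFD against LFD, 1.4% for HFD-LFD against LFD, 0% for LFD-HFD against LFD, 0.0287% for HFD-LFD against HFD, 0.23% for LFD-HFD against HFD and 0% for LFD-HFD against HFD-LFD. These pairs share tumors. Id3 was higher than in LFD by 0.87 (SE 0.43, adjusted p = 0.534) in HFD and by 0.86 (SE 0.43, adjusted p = 0.376) in HFD-LFD tumors. Over the 4 regimens in spindle cell tumors 0 of 10 and 0% of all genes were called. Id4, whose values are given above, alone had an unadjusted p under 0.05 (limma F-test, adjusted p = 0.979). Of the 20905 genes tested there, 785 had one.

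**Figure D2:**
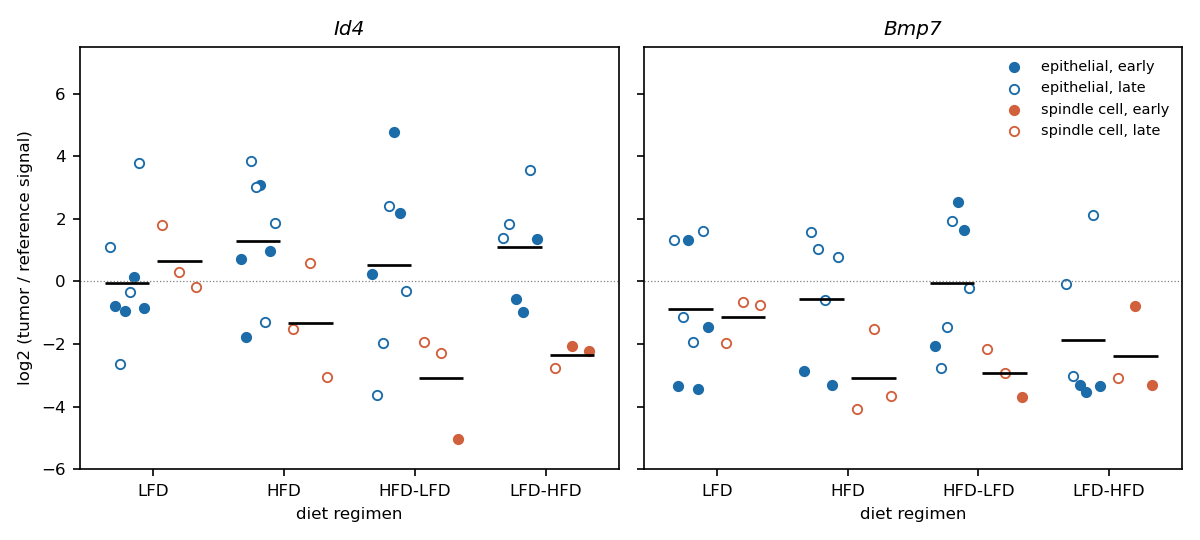
Log2 ratio of tumor over reference of Id4 and Bmp7 in each tumor by regimen and histology, with filled points for early and open points for late tumors and bars at the group means. Each epithelial group spreads over more than 4 log2 units, and the 3 LFD spindle cell tumors (Id4 at 1.81, 0.31 and -0.19) lie above the 6 tumors of the switched regimens.

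Early and late epithelial tumors differed most in Bmp7 and Id1, in opposite directions. Bmp7 was -1.76 ± 2.27 (n = 12) in early and -0.05 ± 1.71 (n = 15) in late tumors, a difference of -1.72 (SE 0.72, 95% interval -3.20 to -0.24, adjusted p = 0.311). Id1 was -1.32 ± 1.04 (n = 13) in early and -2.02 ± 0.80 (n = 15) in late tumors, a difference of 0.70 (SE 0.33, 95% interval 0.02 to 1.38, adjusted p = 0.364). Neither passed in limma. By regimen means, the Id1 direction held in LFD, HFD-LFD and LFD-HFD tumors and turned in HFD tumors (-2.255 early and -1.447 late). The Bmp7 direction held in LFD, HFD and LFD-HFD tumors and turned in HFD-LFD tumors (0.70 early and -0.62 late). Bmp7 and Id1 were the 2 of 10 members with an unadjusted p under 0.05, which 2764 of all 20913 genes had. By limma or by the SAM statistic 0 of 10 were called, against 0.22% of all genes. Id4 differed by -0.30 (SE 0.76, adjusted p = 0.898). Slide is largely tied to regimen and onset. Most slides of epithelial tumors held only early or only late ones. The fit with slide as a fixed block, which called 0 of 10 for onset, can therefore decide little. Over all tumors 0 of 10 were called, against 0.0143% of all genes. In spindle cell tumors 0 of 10 and 0% of all genes were called, and in the test of whether the onset difference itself differed between histologies 0 of 10 and 0.00478% of all genes; in these 3 comparisons no member had an unadjusted p under 0.05. With 3 early spindle cell tumors the Id4 difference there, early minus late, was -2.11 (SE 1.01, limma adjusted p = 1). These 3 were 1 HFD-LFD and 2 LFD-HFD tumors, and all LFD and HFD spindle cell tumors were late. Onset is thus partly tied to regimen there, and the low Id4 of early and of switched-regimen tumors rests partly on the same tumors.

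**Figure D3:**
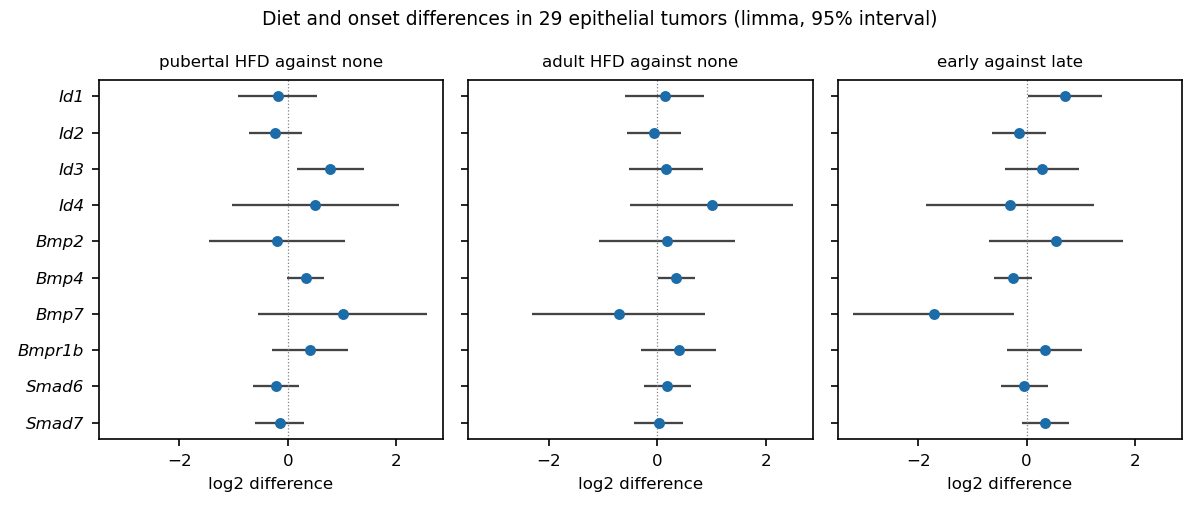
Log2 differences of the 10 genes, with 95% intervals, in epithelial tumors, for pubertal HFD against none, adult HFD against none and early against late. Intervals clear of 0 belong to Id3 (0.16 to 1.398 for pubertal HFD), Bmp4 (0.02 to 0.69 for adult HFD), Bmp7 (-3.20 to -0.24) and Id1 (0.02 to 1.38) for onset, and none passed adjustment.

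Among epithelial tumors 4 of the 45 pairs of members passed a permutation test with an adjusted p under 0.05. The median r over the pairs was 0.0718. The share of all gene pairs that would pass was not computed, so nothing about the set is read from this count. Id1 and the ligand Bmp2 were positively correlated (Pearson r 0.801, permutation p = 2e-05, adjusted p = 0.00045; Spearman rho 0.76, permutation p = 1e-05, n = 28). Over 20912 genes Bmp2 ranked 1 for Id1, and Id1 ranked 1 for Bmp2. The r was 0.727 without the 2 tumors farthest from the median and 0.67 with values centred within slides. In the 12 spindle cell tumors it was 0.368.

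Bmp7 and Smad7 moved in opposite directions (r -0.764, permutation p = 1e-05, the smallest that the permutations can give, adjusted p = 0.00045; rho -0.745, permutation p = 3e-05, n = 27). Smad7 ranked 20899 and thus near the bottom of the 20912 genes for Bmp7, and Bmp7 ranked last for Smad7. The r was -0.779 without the 2 farthest tumors and -0.759 within slides. Its value in spindle cell tumors was 0.373. Id4 and Bmp7 rose together (r 0.61, permutation p = 0.00076, adjusted p = 0.00855; rho 0.581, permutation p = 0.00177, n = 27), with 0.54 without the 2 farthest tumors, 0.678 within slides and 0.63 in spindle cell tumors. Other genes were closer to Id4 than Bmp7 was, which ranked 168. In absolute r, 1.16% of all genes were at least as close to Id4 as Bmp7 was. For Bmp7, 3.13% were at least as close as Id4.

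Id3 and Smad6, both of them BMP targets, rose together (r 0.605, permutation p = 0.0005, adjusted p = 0.0075, n = 28), although by ranks the pair did not pass (rho 0.504, permutation p = 0.00719, adjusted p = 0.0809). The r was 0.468 without the 2 farthest tumors, was 0.779 within slides and was 0.19 in spindle cell tumors. In absolute r, 1.55% of all genes were at least as close to Id3 as Smad6 was. For Smad6, 0.182% were at least as close as Id3. Among spindle cell tumors 1 of the 45 pairs passed, Id1 with Bmp7 (r 0.862, permutation p = 0.00044, adjusted p = 0.0198; rho 0.853, permutation p = 0.00065, n = 12; 0.816 without the 2 farthest), which had r -0.293 in epithelial tumors. Whether the correlations differ between the histologies was not tested.

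**Figure D4:**
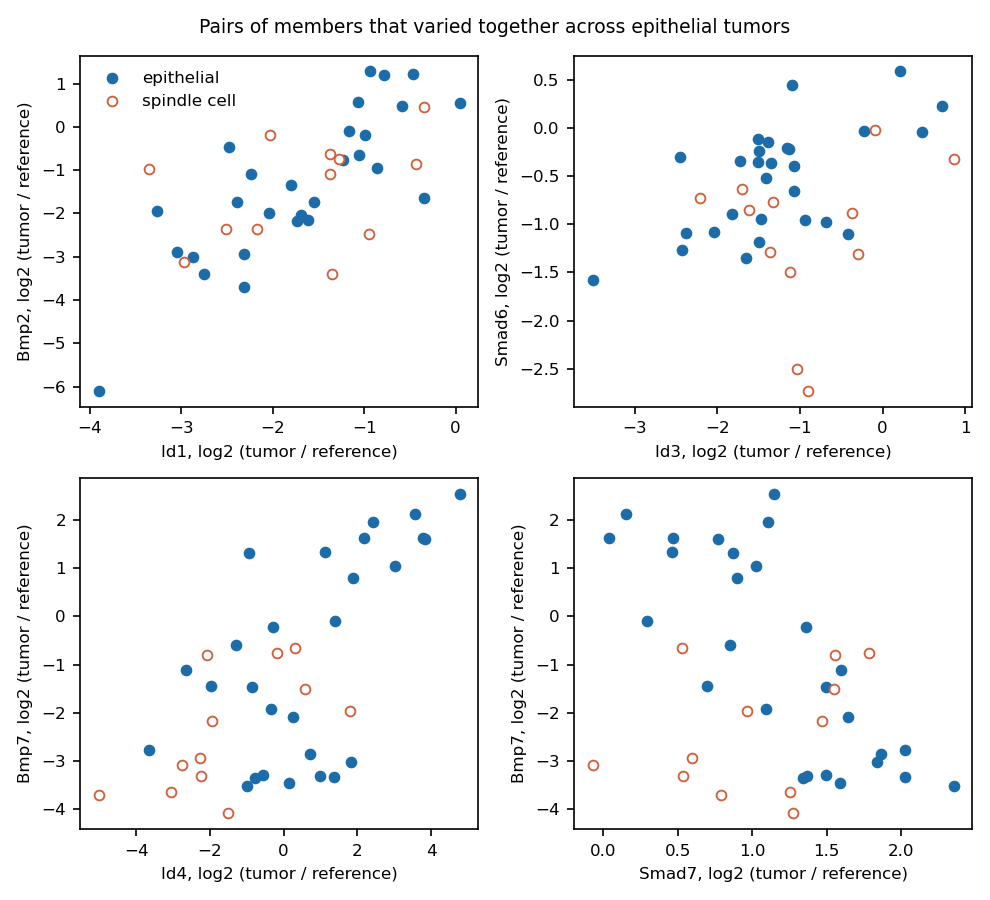
Log2 ratios of the 4 pairs of genes past adjustment in epithelial tumors, each point 1 epithelial (filled) or spindle cell (open) tumor. Among epithelial tumors Id1 rises with Bmp2 (r 0.801), Id3 with Smad6 (r 0.605) and Id4 with Bmp7 (r 0.61). Smad7 falls there as Bmp7 rises (r -0.764).

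The basal and myoepithelial markers moved with 4 of the members. The share of all genes that moves with these markers was not computed, so nothing about the set is read from this count. Each member was set against the mean of each of 8 cell type marker lists, 80 pairs in all, and in epithelial tumors 4 pairs passed, all with the basal list. They were Bmp7 (r 0.814, permutation p = 1e-05, the smallest possible, adjusted p = 0.0008; rho 0.77, permutation p = 2e-05), Smad7 (r -0.653, permutation p = 0.00014, adjusted p = 0.0056; rho -0.627, permutation p = 0.00032), Id4 (r 0.63, permutation p = 0.00027, adjusted p = 0.0072; rho 0.613, permutation p = 0.00067) and Id3 (r 0.56, permutation p = 0.00176, adjusted p = 0.0352; rho 0.458, permutation p = 0.0148, adjusted 0.169). Without the 2 farthest tumors r was 0.79, -0.646, 0.602 and 0.469 in this order, and within slides 0.86, -0.662, 0.653 and 0.664. Of the 8 basal genes singly, all 8 had a positive r with Bmp7, from 0.263 for Trp63, a basal transcription factor, to 0.81 for the keratin gene Krt5. All 8 had a negative r with Smad7 (-0.637 to -0.321), and all 8 a positive r with Id4 (0.173 to 0.56).

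Id3 moved, among spindle cell tumors, with stromal and vascular markers. It passed with the fibroblast and mesenchymal list (r 0.906, permutation p = 5e-05, adjusted p = 0.0028; rho 0.895, permutation p = 0.00017, n = 12), the endothelial list (r 0.889, permutation p = 7e-05, adjusted p = 0.0028; rho 0.937, permutation p = 3e-05) and the adipocyte list (r 0.818, permutation p = 0.00027, adjusted p = 0.0054; rho 0.769, permutation p = 0.00533, adjusted 0.0711). Without the 2 farthest tumors r was 0.873, 0.788 and 0.675. Tumors M32L and M76R, whose arrays had compressed ratios or low tumor signal, were the highest on each of these lists. On the adipocyte list they stood at 1.80 and 3.45, and the other spindle cell tumors from -5.42 to -3.59. The tumors left out included M76R but not M32L, and r without both was not computed. All 8 endothelial genes had a positive r with Id3 in spindle cell tumors, from 0.539 for Kdr, a VEGF receptor, to 0.909 for the junction gene Esam, and in epithelial tumors they ran from -0.362 to 0.458. Bmp4 passed with the macrophage list (r 0.907, permutation p = 0.00011, adjusted p = 0.00293; rho 0.846, permutation p = 0.00111; 0.788 without the 2 farthest). Bmp7 passed with the basal list by r alone (r 0.801, permutation p = 0.00307, adjusted p = 0.0491; rho 0.804, permutation p = 0.00279, adjusted 0.0558; 0.668 without the 2 farthest).

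**Figure D5:**
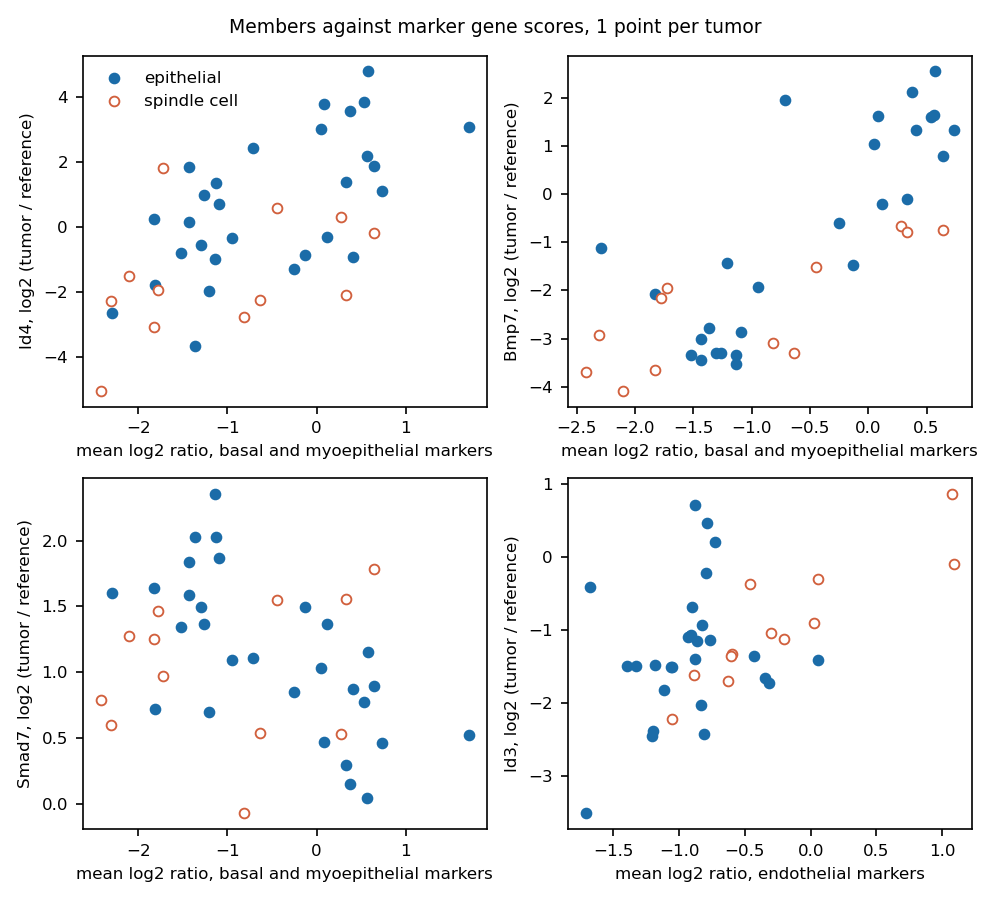
Id4, Bmp7 and Smad7 against the mean log2 ratio of the basal and myoepithelial markers, and Id3 against that of the endothelial markers, each point 1 epithelial (filled) or spindle cell (open) tumor. Among epithelial tumors Bmp7 and Id4 rise with the basal markers (r 0.814 and 0.63) and Smad7 falls (r -0.653), and among spindle cell tumors Id3 rises with the endothelial markers (r 0.889).

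The other genes of the pathway, 52 in 6 lists, were all on the array, and 44 passed the filter. For diet and onset, in both histologies and in the interactions, 0 of 44 were called by limma. Between 1 and 9 of the 44 had an unadjusted p under 0.05, and between 426 and 2764 of all genes tested. Between the histologies 9 of 44 were called (20.5%, against 20.2% of all genes), 5 higher (11.4%, against 7.91%) and 4 lower (9.09%, against 12.3%) in spindle cell tumors. The median difference over the 44 was -0.037, and over all genes -0.07. The ligand Bmp6 was higher by 1.45 (SE 0.24, adjusted p = 5.43e-05), the antagonist Nbl1 by 0.94 (SE 0.34, adjusted p = 0.0421), and Eng, an endothelial co-receptor, by 0.80 (SE 0.17, adjusted p = 0.00111). The antagonist Chrdl2 fell by 1.53 (SE 0.53, adjusted p = 0.0368), Msx2, a BMP target and homeobox factor, by 1.06 (SE 0.35, adjusted p = 0.0293), and the receptor Bmpr1a by 0.71 (SE 0.14, adjusted p = 0.000305). By list, 1 of 7 ligands, 3 of 10 receptors and co-receptors, 1 of 3 Smads, 3 of 15 antagonists, 1 of 6 targets and 0 of 3 E proteins passed. With slide as a random block 4 of these 9 genes still passed (Bmp6, Bmpr1a, Eng and Smad4), and with late tumors only 4 did (Bmp6, Bmpr1a, Eng and Msx2), so the calls of Nbl1 and Chrdl2 were lost under both. The scan session is tied to all of these, as to the 10 genes.

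Among 14893 genes, those whose log2 ratios were most like Id4 over the epithelial tumors were Gpm6b (r 0.81), Piwil2 (r 0.799), Phlda3 (r 0.78), Padi3 (r 0.777) and Drd4 (r 0.771), given as a description over 28 or 29 tumors. With values centred within slides r was 0.801, 0.798, 0.705, 0.799 and 0.8 in this order. In the 12 spindle cell tumors it was 0.128, -0.123, 0.334, 0.304 and 0.689, so Drd4 alone of the 5 stayed above 0.5.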

How the data were processed

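RNA of 41 tumors was hybridized with Universal Mouse Reference RNA on 2-color Agilent arrays. The authors deposited scanner output with the intensity of each spot as mean, local background and processed signals in both channels; the processed signals had been background-subtracted and dye-normalized by Feature Extraction, 11.0.1.1 for epithelial and 10.5.1.1 for spindle cell tumors per the file headers, whereas the submitters' processing notes give 8.5.1.1. The deposited log10 ratios are those of the processed signals and were used for checks. The deposited matrix of log2 ratios, normalized and filtered by the authors, was an alternative.

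Here log2 ratios of processed Cy5 over Cy3 signal were taken, control spots left out, outlier spots (1.2% of values) left missing in every fit, and spots of a probe averaged. A probe had to exceed a signal of 10 in Cy5 and in Cy3 on 80% or more of the arrays; 27307 of 39429 probes did. The probe of highest mean signal stood for its gene. Gene names are those of the array designs, and 3011 differ between the designs. limma 3.58.1 in R 4.3.3 (lmFit, eBayes) gave differences and, for 4 regimens, F-tests, with Benjamini-Hochberg adjustment over all genes and thresholds of 0.10 or, for histology, 0.05, as in the study's methods. All tests were two-sided. Correlations used 100000 permutations, adjusted over the 45 pairs of members or the 80 pairs with marker lists in each histology. The fits were tested on simulated data.

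The members, lists and tests were chosen with earlier results of these data known. Named were the members, up to 6 pathway genes called in a comparison by size, correlated pairs past an adjusted p of 0.05 and the 5 genes most like Id4. The alternatives changed background correction, normalization, centring, filter, probe choice, outlier spots, test, threshold, covariates, slide and samples, left out each tumor in turn, or used the authors' matrix. The number of arrays limits the precision.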

Additional observations from a re-analysis of the deposited data

Results flagged for a closer look

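In the LFD-HFD epithelial tumors, Bmp4 in 1 late tumor stood apart above the others, at -0.388 against -1.13 for the nearest and -1.51 for the lowest of 6 tumors. Its gap was 0.659 of the range, over a critical value of 0.625. In the HFD epithelial tumors, Bmpr1b in tumor 57R stood apart below the others, at -3.16 against -0.958 for the nearest and 0.669 for the highest of 8 tumors, with a gap of 0.576 of the range over a critical value of 0.526. In this tumor Bmpr1b was not well above background (tumor signal 20.99), the only such HFD epithelial tumor, so its value is a bound and the size of the gap is not a measurement. Tumor 57R is 1 of the 3 tumors whose labels differ between the scanner data and the matrix. In 40 groups examined, 2 such values were found, and chance alone gives about 2.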

How the results depend on the processing

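Of 641 counts under all alternatives 618 stayed within 1.5 times the original. Single values were not taken with each tumor left out in turn. Under the other alternatives 918 of 942 single values kept their direction and side of the threshold, 10 lost and 12 gained significance and 2 reversed. The reversed values were the correlations of Smad7 in the 12 spindle cell tumors, 0.373 with Bmp7 and 0.203 with the basal markers; the cause was not tested. The correlation of Smad7 with the basal markers was -0.416 and no longer passed under normexp, nor did that of Id3, at 0.544, with 1 tumor per label number. Among member pairs, 1 passed in spindle cell tumors against 4 in epithelial ones; the cause was not tested beyond the smaller number of tumors.

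For the pubertal effect by histology, 2 members (Id3 and Smad6) were called under normexp and 1 (Id3) without 42L4B, 60L and M86R, and between 0 and 1 when single tumors were left out, 1 being Id3 without M18L, an LFD spindle cell tumor. Between histologies the member counts are a description and not a test. There 1 member passed with slide as a random block (Id2) and 1 with late tumors only (Bmp7). By the SAM statistic 4 passed, at the threshold of 0.10 also 4, and without single tumors 2 to 3. Pathway genes called higher numbered 2 with the slide block, 3 with 1 tumor per label number, 3 with late tumors only, 8 by SAM, and 3 to 6 without single tumors (3 without M118R, M129L, M33R, M63L or M84R). Those called lower numbered 7 without a filter, 2 with the slide block, 2 with late tumors only, 8 by SAM, 7 at the threshold of 0.10, and 2 to 6 without single tumors (2 without M54R). The cause was not tested. The Id4 difference between histologies ranged from -2.42 to -1.85 over the alternatives other than leaving out single tumors in turn. Dim probes limit Bmpr1b. No paired analysis was possible because the labels give no replicate numbers, and the groups compared share at most 1 tumor number.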
